A study of Mus musculus with 15 samples.

Results

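IL-1β and TNFα are the prototypic early cytokines of inflammation, and fibroblasts answer both. The transcriptome of Mouse Embryonic Fibroblasts (MEFs) treated by IL-1β was compared directly with that of MEFs treated by TNFα. The comparison rests on 6 of the 15 arrays of the series, chosen by their labels: IL-1β 5, 10 and 15 and TNFα 4, 9 and 14, where the number is the one that opens the label. The 3 control arrays (untreated MEFs 1, 6 and 11) serve as the baseline. The remaining arrays, of MEFs treated by TGFß1 or by IL-6 with its soluble receptor, enter only the estimates of the spread and of the slide difference. Through the latter they also shift the fitted differences a little. All groups were of the same cells, the Balb/c/3T3 line, which is 1 established clone of embryonic fibroblasts, so the data describe that clone and not primary tissue. IL-1β was given at 1 ng/ml and TNFα at 10 ng/ml, so cytokine and dose cannot be told apart. A stimulation of 24 h is stated for the TNFα arrays, while for IL-1β the labels leave 24 or 72 h, so exposure time cannot be told apart from the cytokine either. Independent experiments are stated for the control and TNFα arrays but not for IL-1β, where the spread between arrays, and so the p-values that rest on it, may be technical.

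IL-1β binds IL-1 receptor type 1 and signals through the adaptor Myd88, whereas TNFα binds TNF receptors that recruit TRADD and TRAF adaptors. Both routes end in the IκB kinase complex, NF-κB and the MAP kinases, and so share many target genes, such as chemokines, adhesion molecules and acute-phase proteins. Selected targets also need a partner: the atypical IκB protein IκBζ, encoded by *Nfkbiz*, and the C/EBP factors act at the promoters of *Lcn2* and *Il6*, while IRF and STAT factors act at interferon-stimulated genes. Fibroblasts make little interferon at rest, but TNFα can start a late interferon response in several cell types.

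Values are log2 processed signals of an Agilent 1-color array minus the 75th percentile of the same array, so that 0 is that percentile and 1 unit is a doubling. Differences are IL-1β minus TNFα, fitted with limma with the slide (arrays lay on 2 slides) in the model, so they can differ a little from the difference of the plain means. The q-value is limma's p-value after Benjamini-Hochberg adjustment over the 28714 probes tested, and "called" means that the q-value was under 0.05 and the fold-change, in either direction, 1.5 or more. A gene is represented by its brightest probe. The 12 fibroblast markers examined, among them *Col1a1* and *Vim*, were well above background on all 6 arrays. Of these, *Col3a1* was called higher with IL-1β (1.68, q = 0.0408, 8 of the 15 fits without 1 array), and the median was 0.39. Against control, 3 of the 12 fell and 1 rose with TNFα. Without IL-1β 5, 3 markers were called higher with IL-1β. Of 10 macrophage and leukocyte markers, 4 were well above background on all 6 arrays, and these were tested and not called. Another 4 (*Ptprc*, *Adgre1*, *Lyz2* and *Fcgr1*) were above background on none of the 6 arrays. Of 7 endothelial markers 1 was above background on all 6 arrays and could be tested, and it was not called. None of 7 epithelial markers could be tested.

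The response to TNFα was the broader, and the inflammatory genes of the lists examined leaned to TNFα. The lists were chosen with earlier results of these data known, so this lean describes them and is no independent evidence. Chemokines for T cells and monocytes (*Ccl5*, *Cxcl9*, *Cxcl10*), the adhesion molecule *Icam1*, several inhibitors of NF-κB and many interferon-stimulated and antigen presentation genes were higher with TNFα. A smaller set was higher with IL-1β, among them *Lcn2*, *Cebpd*, *Hp* and *Cxcl5*. A further set, with *Saa3*, *C3*, *Slpi* and *Cxcl1*, was strongly induced by both and was not called between them.

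In all, 1827 probes (6.36%) were called between the cytokines, 1041 higher with IL-1β (3.63%) and 786 higher with TNFα (2.74%). Arrays whose label numbers fall in the same run of 5 deviated together, and with that run added as a block to the fit 3027 probes were called. By gene, 643 of the 13280 genes tested (4.84%) were higher with IL-1β and 427 (3.22%) were higher with TNFα. Against control, 111 of 28367 probes were called with IL-1β (0.391%), 103 higher (0.363%) and 8 lower (0.0282%), and 332 with the run block. With TNFα 3505 of 28268 were called (12.4%), 1712 higher (6.06%) and 1793 lower (6.34%), and 4420 with the run block. By gene, IL-1β raised 67 of 13157 (0.509%) and lowered 4 (0.0304%), and TNFα raised 857 of 13169 (6.51%) and lowered 1085 (8.24%). Both contrasts use the same control arrays.

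The lists of inflammatory genes, leaving out the gene set that the study itself chose, held 465 genes. Of these, 352 passed the filter on dim probes in at least 1 of the 2 groups and were tested. Of those tested, 110 were higher with TNFα (140 with the run block) and 25 with IL-1β (43 with the run block), against 3.22% and 4.84% of all genes tested. The antiviral, interferon-inducible GTPase and MHC class I lists held 29, 9 and 16 of the 110. As the lists were chosen with earlier results known, the split depends on that choice. Against control, 32 of 344 list genes rose and 0 fell with IL-1β, whereas 151 of 352 rose and 27 fell with TNFα. The median difference of the tested members was -0.40, beside -0.03 over all genes tested. Within slide 1 and slide 2, each of which sets 1 array of a cytokine against 2 of the other, the medians of the tested members were -0.40 and -0.31. For the 110 genes higher with TNFα, the control mean lay nearer to the IL-1β mean in 110. The same held for 427 of the 427 such genes among all genes tested. For the 25 genes higher with IL-1β, the control mean lay nearer to the IL-1β mean in 18 and nearer to the TNFα mean in 7. Most of this set thus had its lowest level with TNFα. Among all genes tested that were higher with IL-1β the counts were 617 and 26, so the share in the lists was the smaller. Of the 135 called members, 82 were called with each of the 15 arrays left out in turn, and without 1 array the counts ran from 16 (without TNFα 4) to 30 for IL-1β and from 78 (without TNFα 14) to 115 for TNFα.

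**Figure D1:**
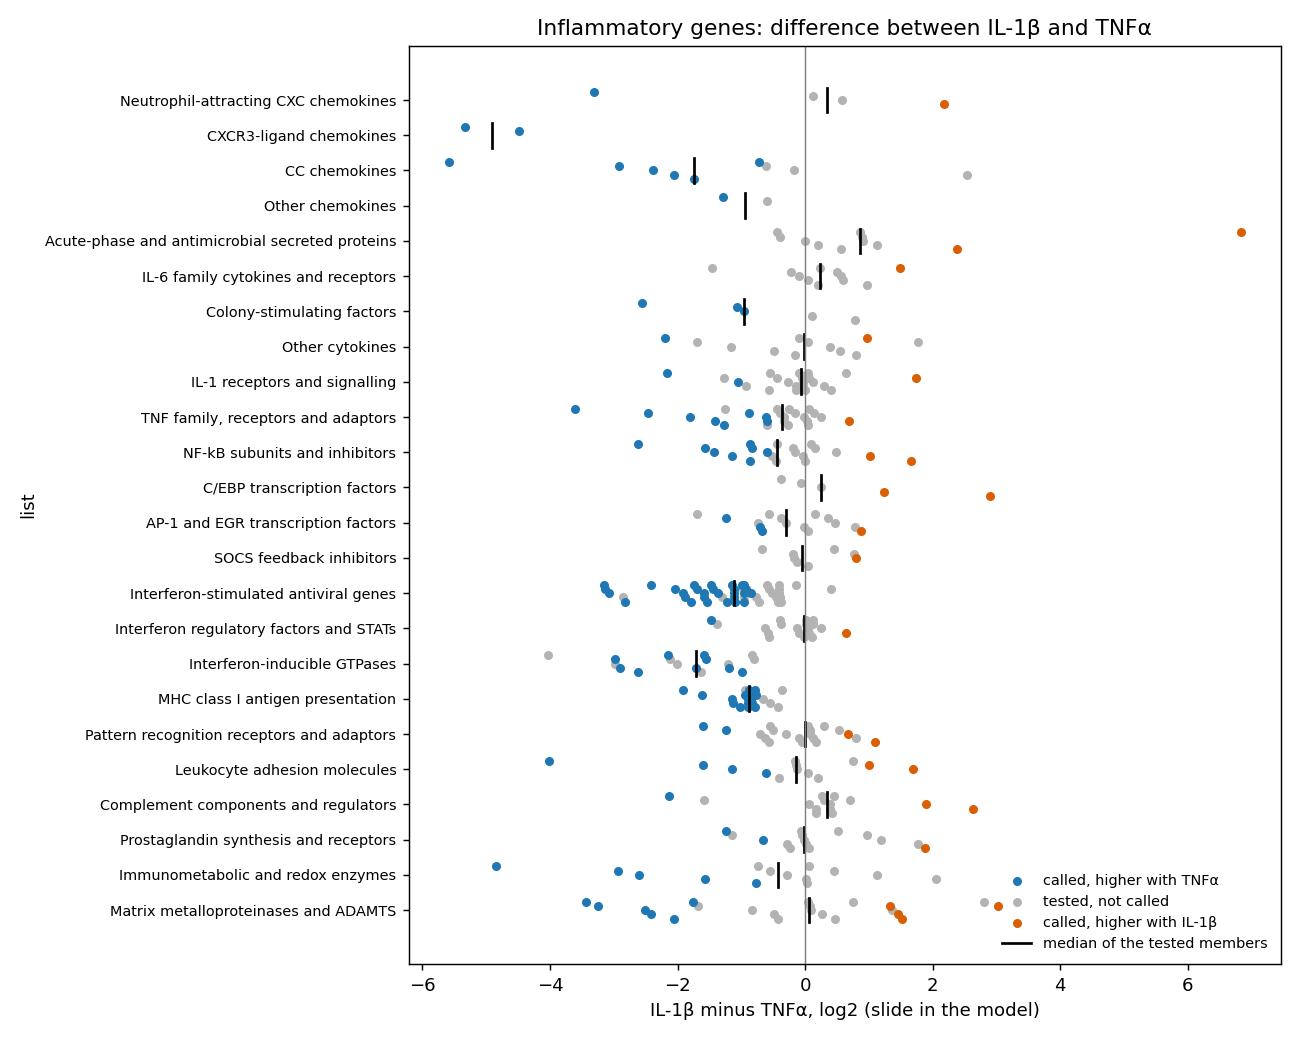
Difference between IL-1β and TNFα (log2, x axis) for each tested gene of 24 inflammatory lists (y axis); colored points were called, grey points were not, and a black bar marks the median of a list. The medians ran from -4.91 for the CXCR3 ligands to 0.86 for the acute-phase proteins. The CXCR3 list had 2 tested genes, and *Cxcl9* was above background on no IL-1β array, so its median has no exact value.

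*Lcn2*, encoding lipocalin 2, which binds bacterial siderophores, had the largest difference in favour of IL-1β among the genes called. Its level was 2.88, 5.33 and 3.76 on IL-1β 5, 10 and 15, and -2.86, -2.19 and -3.14 on TNFα 4, 9 and 14. The control arrays had -3.75, -1.01 and -2.84. The TNFα arrays thus lay within the range of the controls and every IL-1β array lay above both. The difference was 6.83 ± 0.94 (SE), a 114-fold ratio (q = 0.00104), and both probes of the gene were called. Against control, the difference was 6.52 with IL-1β (q = 0.0087) and -0.31 with TNFα (q = 0.84).

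The chemokine *Cxcl5*, which attracts neutrophils through CXCR2, was induced by both cytokines and more by IL-1β. It reached 6.88, 7.11 and 7.28 with IL-1β and 5.04, 5.32 and 4.65 with TNFα, over 1.87, 2.27 and 1.76 in controls. The 3 groups did not overlap. The difference between the cytokines was 2.18 ± 0.17 (q = 2.08e-05), or 4.52-fold. *Hp*, encoding the hemoglobin scavenger haptoglobin, had 3.29, 3.30 and 4.31 with IL-1β and 1.00, 1.17 and 1.66 with TNFα, where controls had 0.04, -1.17 and 1.12. The control arrays of *Hp* overlapped the TNFα arrays and not the IL-1β arrays. Its difference of 2.38 ± 0.56 passed (q = 0.0222), but the call was lost without IL-1β 10, IL-1β 15, TNFα 4, TNFα 9 or TNFα 14 (differences 1.90 to 2.70, highest q = 0.118).

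*Il6*, encoding the cytokine that drives the acute-phase response, was weakly expressed and favoured IL-1β. Its level was -1.34, -0.67 and -0.48 with IL-1β and -2.37, -2.13 and -2.49 with TNFα, beside -2.66, -2.20 and -2.13 in controls. The TNFα and control arrays overlapped. The difference of 1.49 ± 0.35 was called (q = 0.0206), though not without IL-1β 10, IL-1β 15, TNFα 4 or TNFα 14 (1.20 to 1.47 in those fits, highest q = 0.111), and IL-1β against control did not pass (q = 0.11). No other of the 11 tested genes of the IL-6 family and its receptors was called, at a median of 0.24. With the run block the receptor gene *Il6ra* was called higher with IL-1β as well (0.99, q = 0.000491), and *Osmr*, the oncostatin M receptor gene, was so under quantile normalization and without IL-1β 5. *Lif*, a cytokine of the family, was called higher with TNFα without IL-1β 15 (-2.37, q = 0.0492).

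Transcription factors and feedback regulators that favoured IL-1β were few. *Cebpd*, encoding C/EBPδ, stood out because the cytokines moved it in opposite directions. It had 4.01, 4.43 and 4.62 with IL-1β, 2.62, 3.06 and 3.11 in controls and 1.32, 1.57 and 1.57 with TNFα. No group overlapped another. The difference was 2.90 ± 0.21 (q = 1.3e-05), with 1.43 for IL-1β against control (q = 0.010) and -1.48 for TNFα against control (q = 0.00062). *Cebpa*, encoding C/EBPα, was also higher with IL-1β (1.23 ± 0.32, q = 0.0346), but here TNFα lay below control (-1.79, q = 0.0028) and IL-1β against control did not pass (-0.56, q = 0.90). The *Cebpa* call was lost without IL-1β 10, IL-1β 15, any TNFα array or TGFß1 12 (0.94 to 1.44, highest q = 0.125).

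*Nfkbiz*, encoding IκBζ, was 1.54, 1.61 and 1.67 with IL-1β and 0.57, 0.44 and 0.58 with TNFα, while controls had 0.29, -0.04 and 0.11. The arrays of the 3 groups stood in that order without overlap. The difference was 1.02 ± 0.12 (q = 0.000363). *Zc3h12a*, encoding regnase-1, an RNase that degrades cytokine mRNAs, differed by 1.66 ± 0.25 (q = 0.00196). Its plain values of -1.82, -1.06 and -0.25 with IL-1β barely cleared the -1.85, -1.84 and -3.09 with TNFα, and without the slide in the model the gene was not called (1.21, q = 0.311), although it was called in all 15 fits that left out 1 array. *Socs3*, a feedback inhibitor of IL-6 signaling, was modestly higher with IL-1β (0.80 ± 0.20, q = 0.0294), a call lost without IL-1β 15 or any TNFα array (0.55 to 0.95, highest q = 0.152).

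**Figure D2:**
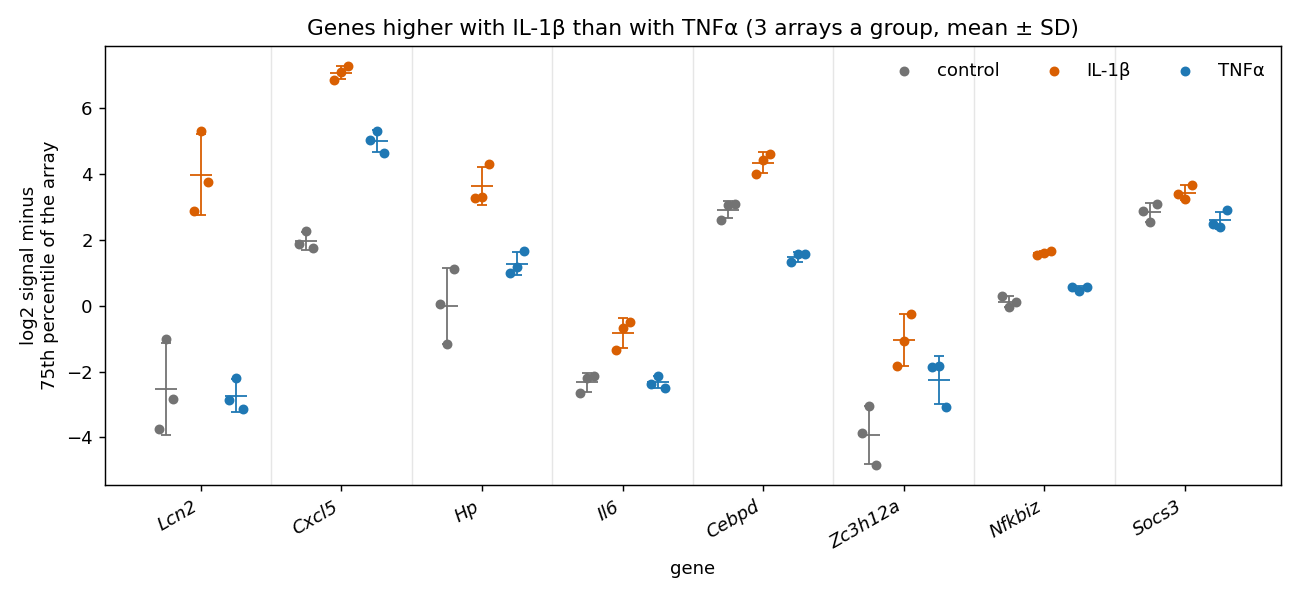
Level (log2 signal minus the 75th percentile of the array, y axis) of 8 genes called higher with IL-1β, for control, IL-1β and TNFα arrays; points are arrays, bars are mean ± SD of 3. For *Lcn2* and *Il6* the TNFα arrays sit among the controls, for *Cxcl5* and *Nfkbiz* they sit between the controls and IL-1β, and for *Cebpd* they sit below the controls.

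Proximal promoters of members named above were read from RefSeq (GRCm38.p6), as the 250 bases before the start of the gene, in the direction of transcription. *Lcn2* is shown as the gene with the greatest difference, with the letters TTGCNNAA (a C/EBP-type site, either strand) in capitals. It lies at chr2:32387740-32387989 on the minus strand, and the match begins 216 bases before the start.
Lcn2: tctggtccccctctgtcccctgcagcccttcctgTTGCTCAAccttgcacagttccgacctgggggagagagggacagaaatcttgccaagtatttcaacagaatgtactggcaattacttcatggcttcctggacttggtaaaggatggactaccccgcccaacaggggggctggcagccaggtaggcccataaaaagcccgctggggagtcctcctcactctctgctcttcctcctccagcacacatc
*Il6* lies at chr5:30012864-30013113 on the plus strand, with the letters GGG, any 2 bases and TTTCC (an NF-κB-type site, either strand) in capitals, which begin 44 bases before the start. The *Il6* window also holds the C/EBP-type letters on the opposite strand, left in lower case because a single type of site is marked per gene.
Il6: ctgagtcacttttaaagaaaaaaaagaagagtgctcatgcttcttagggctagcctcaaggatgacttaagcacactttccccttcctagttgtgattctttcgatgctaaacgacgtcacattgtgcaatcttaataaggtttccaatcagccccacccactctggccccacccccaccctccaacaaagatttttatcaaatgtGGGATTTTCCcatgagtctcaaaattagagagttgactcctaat
Of the 25 list genes higher with IL-1β, 18 had a promoter in the table, of which 2 held the C/EBP-type letters (11.1%) and 1 the NF-κB-type letters (5.56%). Among all 32851 promoters of the table the shares were 9.56% and 1.41%. Of 91 list genes higher with TNFα with a promoter, 11 (12.1%) and 7 (7.69%) held them.

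Most other inflammatory genes called higher with IL-1β did not pass against control with IL-1β and fell below control with TNFα. *Timp3*, encoding an inhibitor of metalloproteinases, had 0.64, 1.09 and 0.61 with IL-1β, 1.19, 0.92 and 1.14 in controls and -2.58, -1.84 and -2.62 with TNFα. The IL-1β arrays overlapped the controls and all TNFα arrays lay far below. The difference was 3.02 ± 0.27 (q = 5.53e-05). The same held for *Cfd*, encoding complement factor D (2.63, q = 0.00501), *Cd55*, a membrane inhibitor of complement (1.90, q = 0.00277), the prostaglandin F receptor *Ptgfr* (1.87, q = 0.0016) and *Peli2*, a ubiquitin ligase of the IL-1 pathway (1.74, q = 0.0027). The proteoglycan *Vcan* (1.69, q = 0.00152), the toll-like receptor *Tlr1* (1.09, q = 0.00697) and the cytokine *Tgfb2* (0.97, q = 0.00351) followed, as did the AP-1 subunit *Fos* (0.87, q = 0.00278), the toll-like receptor adaptor *Ticam1* (0.67, q = 0.0169) and *Stat3*, the transcription factor of IL-6 signaling (0.64, q = 0.0238). The *Stat3* call was lost without IL-1β 10, IL-1β 15, TNFα 4 or TNFα 14 and the *Ticam1* call in 3 of the 15 fits without 1 array. *Jam2*, a junctional adhesion molecule, was also higher with IL-1β (1.01, q = 0.037), called in 9 of those 15 fits. TNFα receptor 1 itself, *Tnfrsf1a*, was 0.68 higher with IL-1β (q = 0.00463), where TNFα arrays had 4.61, 4.77 and 4.6 and the IL-1β arrays had 4.96, 5.31 and 5.51, but it was not called without the slide in the model. The IL-1 receptor gene *Il1r1* was not called (-0.27, q = 0.33).

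The widest gaps in favour of TNFα were led by chemokines. *Ccl5*, which attracts T cells and monocytes, had 7.64, 8.36 and 8.16 with TNFα, 2.65, 2.41 and 2.50 with IL-1β and -0.56, -0.73 and 0.35 in controls. Both cytokines thus stood clear of the controls, TNFα far above IL-1β. The difference was -5.59 ± 0.31 (q = 3.38e-06), a 48.1-fold ratio, and against control *Ccl5* rose by 8.42 with TNFα and by 2.83 with IL-1β (q = 3.3e-08 and 0.0012).

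The CXCR3 ligands *Cxcl9* and *Cxcl10*, which attract activated T cells, were both higher with TNFα. *Cxcl10* had 5.30, 5.45 and 5.23 with TNFα, 0.78, 0.76 and 1.19 with IL-1β and -1.0, 0.06 and -0.31 in controls (difference -4.49 ± 0.61, q = 0.000908). *Cxcl9* was well above background on the 3 TNFα arrays (-1.44, 0.12 and -1.20) and on no IL-1β or control array. It was at least 16.9-fold higher with TNFα than with IL-1β (q = 0.000439). *Cxcl2*, a neutrophil attractant, was likewise above background only with TNFα among these 3 groups, at least 5.95-fold higher than with IL-1β (q = 0.00293), the reverse of *Cxcl5*.

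Of 9 CC chemokines tested, 6 were called, all higher with TNFα. The eosinophil attractant *Ccl11*, at 2.53, leaned to IL-1β without passing (q = 0.105) and was called higher with IL-1β with the run block (q = 0.000365) and without TNFα 9 (3.33, q = 0.0461). The macrophage attractant *Ccl9* had 4.50, 4.13 and 4.45 with TNFα and 1.32, 1.35 and 1.66 with IL-1β, which overlapped the 1.09, 1.56 and 1.92 of the controls (difference -2.92 ± 0.28, q = 9.48e-05). *Ccl20*, which attracts CCR6-bearing lymphocytes, differed by -2.06 (q = 0.00555). *Ccl8* (-2.38, q = 0.0336), *Ccl17* (-1.74, q = 0.0119) and *Ccl7* (-0.73, q = 0.0203), which attract monocytes or T cells, completed the 6. Their calls were less stable, *Ccl8* being lost without IL-1β 5, IL-1β 15, TNFα 4 or TNFα 9, *Ccl7* without IL-1β 10, IL-1β 15, TNFα 9 or TNFα 14 and *Ccl17* without TNFα 14, with a highest q of 0.127, 0.0965 and 0.0821. The membrane-bound chemokine *Cx3cl1* was higher with TNFα as well (-1.29, q = 0.00382).

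Of 5 growth factors of myeloid cells tested, 3 were higher with TNFα. *Csf2*, encoding GM-CSF, had 0.54, -0.84 and 0.10 with TNFα, -2.05, -2.46 and -2.84 with IL-1β and -4.96, -5.83 and -5.47 in controls, where only 1 array was above background. The difference was -2.55 ± 0.59 (q = 0.0201), a call lost without IL-1β 10, IL-1β 15, TNFα 4 or TNFα 14 (-2.68 to -2.18, highest q = 0.0826). Both ligands of the macrophage receptor CSF1R were higher with TNFα, *Csf1* by 1.94-fold (q = 0.000361) and *Il34* by 2.10-fold (q = 0.000762), the latter not called without the slide in the model. The other 2 of the list, *Flt3l* (0.11, q = 0.752) and *Kitl* (0.79, q = 0.0736), were not called, and *Kitl*, encoding stem cell factor, was called higher with IL-1β with the run block (q = 0.00063) and with normexp, another background correction. The epithelial-type alarm cytokine *Tslp* was 4.61-fold higher with TNFα (q = 0.00327).

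Adhesion molecules that hold leukocytes to stromal and endothelial cells followed. *Icam1* had 2.67, 2.59 and 3.18 with TNFα, -1.44, -1.35 and -0.79 with IL-1β and -3.55, -3.10 and -2.67 in controls. The 3 groups did not overlap. The difference was -4.01 ± 0.26 (q = 7.15e-06), or 16.2-fold. *Vcam1* was 3.02-fold higher with TNFα (q = 0.00457) and its IL-1β arrays (3.12, 3.83 and 3.45) overlapped the controls (2.65, 3.41 and 3.05). *Pdpn* (-1.14, q = 0.000912) and *Cd44* (-0.62, q = 0.0223) were the other 2 of the 4 members called higher with TNFα among 13 tested. The *Cd44* call was lost without IL-1β 10, IL-1β 15 or any TNFα array (highest q = 0.0827) and under quantile normalization.

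Feedback inhibitors of NF-κB were higher with TNFα in replicates that lay close together. *Tnfaip3*, encoding A20, a ubiquitin-editing brake on NF-κB, had 3.81, 3.55 and 3.60 with TNFα, 1.16, 0.98 and 1.29 with IL-1β and -0.21, -0.23 and -0.13 in controls. *Nfkbie*, encoding IκBε, had 3.67, 3.67 and 3.61 with TNFα, 0.74, 0.83 and 1.27 with IL-1β and -0.47, -0.11 and -0.26 in controls. For both genes IL-1β lay between control and TNFα without overlap. The differences were -2.47 ± 0.11 and -2.61 ± 0.11 (both q = 4.21e-07), and both genes rose against control with each cytokine.

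Of 20 NF-κB subunits and inhibitors tested, 8 were higher with TNFα: *Nfkbie*, *Tnip1* (-1.57), *Nfkbia* (-1.43), the kinase *Ikbke* (-1.15), *Nfkb2* (-0.87), *Nfkbib* (-0.86), *Relb* (-0.84) and *Nfkb1* (-0.60). The *Nfkb1* call was lost without IL-1β 15 or TNFα 9 (highest q = 0.0178, the fold-change being then under 1.5), without the slide in the model and with normexp. Only *Zc3h12a* and *Nfkbiz* were higher with IL-1β. Against control, 12 of the 20 rose with TNFα and 8 with IL-1β. In the TNF family list, 8 of 24 tested were higher with TNFα and *Tnfrsf1a* alone with IL-1β. The adaptor *Traf1* led with 2.97, 2.25 and 3.11 with TNFα against -0.56, -1.67 and -0.51 with IL-1β (-3.61 ± 0.55, q = 0.00205), and its IL-1β arrays overlapped the controls. The death inhibitor *Birc3* was 3.51-fold and the death receptor *Fas* 2.41-fold higher with TNFα (q = 4.6e-05 and 0.000203).

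IL-1 pathway genes were mostly not called, at a median of -0.07 over 22 tested. The decoy receptor *Il1r2*, which captures IL-1β, was higher with TNFα (-2.17 ± 0.50, q = 0.0191), a call lost without IL-1β 15, TNFα 9 or TNFα 14 (highest q = 0.0914). The IL-18 receptor gene *Il18r1* was higher with TNFα too (-1.06, q = 0.00469). The sensor of bacterial wall fragments *Nod2* (-1.25, q = 0.00891) and its kinase *Ripk2* (-1.59, q = 0.0019) were the 2 of 20 pattern recognition genes higher with TNFα. Among AP-1 and related early genes, *Ier3* (-1.25, q = 0.00302) and *Jun* (-0.71, q = 0.000574) were higher with TNFα, and *Maff* (-0.68, q = 0.0374) was so in 7 of the 15 fits without 1 array. The prostaglandin transporters *Slco2a1* (-1.24, q = 0.00821) and *Abcc4* (-0.66, q = 0.0144) were higher with TNFα, unlike the receptor *Ptgfr*. The *Abcc4* call was lost without IL-1β 10, IL-1β 15, TNFα 4 or TNFα 14 (highest q = 0.0801), and without TNFα 14 neither transporter was called. The inducible cyclooxygenase *Ptgs2* was not called (-0.02). *Il1a* and *Il1b* were above background on none of the 6 arrays.

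**Figure D3:**
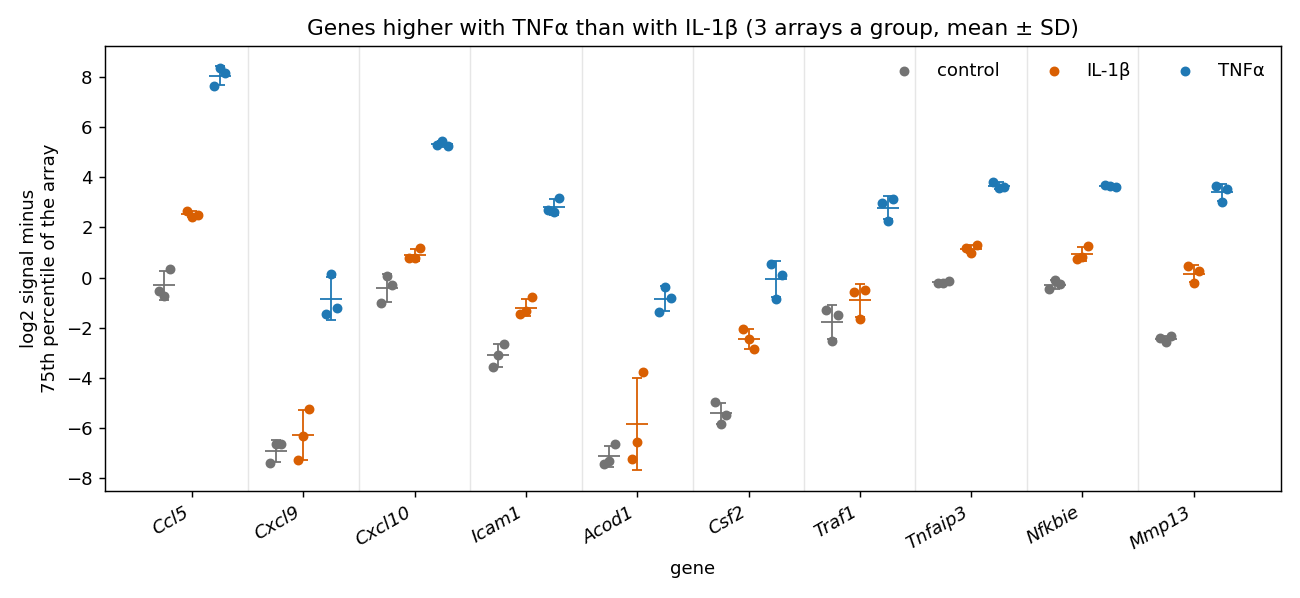
Level (log2 signal minus the 75th percentile of the array, y axis) of 10 genes called higher with TNFα, for control, IL-1β and TNFα arrays; points are arrays, bars are mean ± SD of 3. IL-1β arrays sit between the control and TNFα arrays for *Ccl5*, *Icam1*, *Tnfaip3*, *Nfkbie* and *Mmp13*, and *Acod1* has 1 IL-1β array, at -3.76, apart from the other 2.

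Interferon-stimulated genes formed the largest block in favour of TNFα. Of 47 antiviral genes tested, 29 were higher with TNFα and none with IL-1β, at a median of -1.11. Of 17 interferon-inducible GTPases tested, 9 were higher with TNFα and none with IL-1β, at a median of -1.71. Of 21 genes of MHC class I antigen presentation tested, 16 were higher with TNFα and none with IL-1β, at a median of -0.88. Against control, 29, 12 and 17 members of these lists rose with TNFα and 0, 0 and 0 with IL-1β, where the medians with IL-1β were 0.07, 0.08 and 0.13. Within slide 1 the medians between the cytokines were -1.17, -1.66 and -0.97, and within slide 2 they were -0.97, -1.66 and -0.84.

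*Ifit3*, encoding a protein that holds back viral RNA, had 3.87, 4.99 and 4.24 with TNFα, 0.88, 1.82 and 1.41 with IL-1β and -0.14, 1.17 and 0.96 in controls. *Gbp2*, a guanylate-binding protein that attacks intracellular pathogens, had 4.38, 4.69 and 4.80 with TNFα, 1.68, 2.13 and 2.27 with IL-1β and 0.54, 0.83 and 1.51 in controls. The TNFα arrays stood clear of all others for both genes. *Ifit3* differed by -3.14 ± 0.67 (q = 0.0142) and *Gbp2* by -2.63 ± 0.28 (q = 0.000196). Among the GTPases, *Gbp2b* (-2.99) and *Gbp3* (-2.91) showed the widest gaps of those called. *Gbp5*, at -4.03, was not called (q = 0.0544) and was called with the run block (q = 0.00144). Further antiviral genes called were *Rsad2*, encoding viperin (-3.07, q = 0.0368), *Ifit1* (-2.42, q = 0.0141), *Slfn2* (-1.91, q = 0.000858), *Parp14* (-1.79, q = 0.000373), the ubiquitin-like modifier *Isg15* (-1.69, q = 0.02) and the RNA sensor *Ifih1* (-0.99, q = 0.00418). The smallest gap among the 29 was -0.84, for *Ifi35*. *Rsad2* was called in 8 of the 15 fits without 1 array, *Isg15* in 12 and *Ifit1* in 14. The guanylate-binding, Ifit and H2 genes share much sequence with their paralogs, so probes of these families may cross-hybridize.

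The antigen presentation genes moved by less and with a smaller spread. The immunoproteasome subunit *Psmb10* had 6.18, 6.32 and 6.44 with TNFα, 4.38, 4.42 and 4.56 with IL-1β and 4.46, 4.01 and 4.65 in controls (-1.92 ± 0.13, q = 9.58e-06). The class I heavy chain *H2-K1* had 7.97, 8.06 and 7.96 with TNFα and 6.99, 7.10 and 7.22 with IL-1β (-0.88 ± 0.10, q = 0.000386). IL-1β arrays of *Psmb10* lay within the control range. *Irf1*, a transcription factor of class I and GTPase genes, had 5.79, 5.83 and 5.89 with TNFα, 4.11, 4.38 and 4.55 with IL-1β and 4.13, 4.30 and 4.56 in controls (-1.48 ± 0.15, q = 0.000108). It was the exception in its list of interferon regulatory factors, STATs and their receptors and kinases. Of the 19 tested, 1 (*Irf1*) was higher with TNFα, 1 (*Stat3*) was higher with IL-1β and 17 were not called, at a median of -0.02. The interferon gene *Ifnb1* was above background on 3 TNFα arrays, 1 IL-1β array and no control array, and was not called (q = 0.242).

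The antiviral and GTPase counts depended on single arrays. Of the 29, 9 and 16 called members, 10, 4 and 12 were called with each of the 15 arrays left out in turn. The antiviral count fell to 17, 16 and 18 without IL-1β 5, 10 and 15 and to 14 without TNFα 9 or TNFα 14. The GTPase count fell to 5, 5 and 4 without IL-1β 5, 10 and 15 and to 4 without TNFα 9 or TNFα 14. The class I count did not fall below 13. With the run as a further block, 16 of the 17 GTPases were called.

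**Figure D4:**
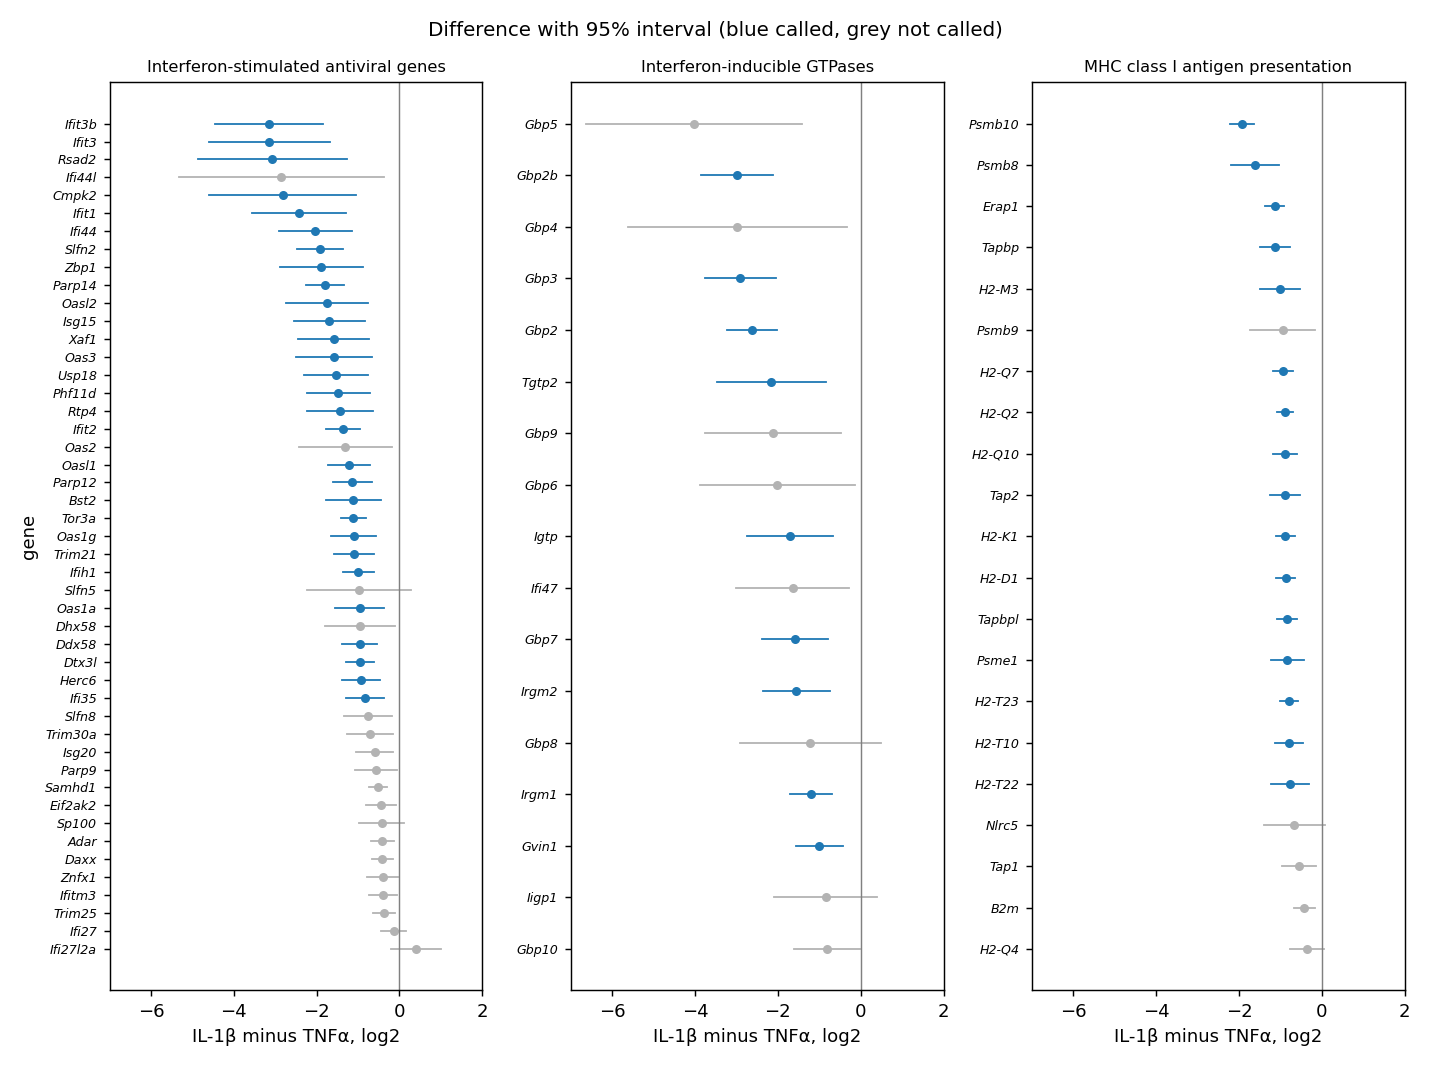
Difference between IL-1β and TNFα (log2, x axis) with its 95% interval for each tested gene (y axis) of the antiviral, GTPase and MHC class I lists; blue genes were called. All called genes lie below 0, and the intervals are narrower for class I genes than for GTPases.

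The promoters of these genes were examined because the members moved together. The letters GAAA, any 2 bases and GAAA (an ISRE-type site, bound by IRF and STAT factors, either strand) stood in the 250 bases before the start in 9 of 24 antiviral genes higher with TNFα that had a promoter in the table (37.5%). The same held for 8 of 8 GTPases (100%) and for 2 of 13 class I genes (15.4%), beside 2.98% of all promoters. Of members tested and not called, 3 of 13 antiviral genes, 1 of 2 GTPases and 1 of 4 class I genes held them. Among list genes higher with IL-1β it was 0 of 18. Paralogs share sequence, so their matches are not independent. *Ifit3* and *Gbp2* are shown for the antiviral and GTPase lists and *Cxcl10* for the chemokines, with the letters in capitals. *Cxcl10* lies at chr5:92348890-92349139 on the minus strand.
Cxcl10: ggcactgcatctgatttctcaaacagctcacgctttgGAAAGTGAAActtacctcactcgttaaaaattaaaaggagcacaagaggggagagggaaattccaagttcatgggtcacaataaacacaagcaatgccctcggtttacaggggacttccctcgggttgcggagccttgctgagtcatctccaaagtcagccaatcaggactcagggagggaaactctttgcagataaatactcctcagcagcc
*Ifit3* lies at chr19:34583279-34583528 on the plus strand, with 2 matches.
Ifit3: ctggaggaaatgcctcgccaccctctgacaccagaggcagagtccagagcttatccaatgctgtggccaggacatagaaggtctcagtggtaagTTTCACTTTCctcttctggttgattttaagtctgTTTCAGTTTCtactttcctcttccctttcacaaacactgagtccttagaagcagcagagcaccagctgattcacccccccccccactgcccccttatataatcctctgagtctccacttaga
*Gbp2* lies at chr3:142620413-142620662 on the plus strand.
Gbp2: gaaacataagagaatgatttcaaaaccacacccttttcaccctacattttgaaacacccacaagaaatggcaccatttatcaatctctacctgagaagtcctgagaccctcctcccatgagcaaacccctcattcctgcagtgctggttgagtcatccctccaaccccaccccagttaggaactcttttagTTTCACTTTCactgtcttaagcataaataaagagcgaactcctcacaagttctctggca
A match describes the letters of this window and was not tested as a binding site.

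Matrix-degrading enzymes were divided, with 6 of the 22 genes tested in the list of metalloproteinases and ADAMTS higher with TNFα and 4 higher with IL-1β (7 with the run block), at a median of 0.06. *Mmp13*, a collagenase, had 3.65, 3.02 and 3.55 with TNFα, 0.45, -0.24 and 0.26 with IL-1β and -2.42, -2.56 and -2.34 in controls. The 3 groups did not overlap. The difference was -3.25 ± 0.23 (q = 1.02e-05), and *Mmp13* rose against control with both (5.85 and 2.60). The stromelysins *Mmp10* (-3.44, q = 0.00102) and *Mmp3* (-2.41, q = 0.00115), the gelatinase *Mmp9* (-2.51, q = 0.00136) and the collagenases *Mmp1b* (-2.06, q = 0.00299) and *Mmp1a* (-1.76, q = 0.0465) were also higher with TNFα. *Mmp19* (1.46, q = 0.0154), *Mmp23* (1.32, q = 0.0061), the aggrecanase *Adamts5* (1.53, q = 0.0394) and the inhibitor *Timp3* were higher with IL-1β. Leaving out 1 array ended the *Mmp1a* call in 11 of 15 fits, the *Adamts5* call in 8 and the *Mmp19* call in 4, and the count higher with IL-1β was 2 without IL-1β 10, IL-1β 15, TNFα 4 or TNFα 14.

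Among metabolic enzymes of inflammation, 5 of 14 tested were called, all higher with TNFα. The extracellular superoxide dismutase *Sod3* leaned to IL-1β without passing (2.06, q = 0.0583) and was called higher with IL-1β with the run block (q = 7.23e-05), with normexp and without IL-1β 5 or TNFα 9. *Acod1*, which makes the antibacterial metabolite itaconate, had -1.36, -0.37 and -0.82 with TNFα and -7.24, -6.54 and -3.76 with IL-1β. It was above background on IL-1β 15 alone among the IL-1β arrays and on no control array. It was called higher with TNFα (q = 0.00149), but the size of the gap has no exact value, since 2 of the 3 IL-1β arrays were not above background. *Upp1*, a uridine phosphorylase, was 7.68-fold (q = 0.00351), *Ch25h*, which makes 25-hydroxycholesterol, 6.06-fold (q = 0.0164), *Gch1*, of tetrahydrobiopterin synthesis, 2.95-fold (q = 0.000204) and the mitochondrial superoxide dismutase *Sod2* 0.78 on the log2 scale (q = 0.00409) higher with TNFα. The *Ch25h* call was lost without IL-1β 15 or TNFα 14 (highest q = 0.078). The complement gene *Cfb* (-2.14, q = 0.0307) was higher with TNFα too, unlike *Cfd* and *Cd55*, but was not called without IL-1β 5, 10 or 15, TNFα 9 or TNFα 14 (highest q = 0.10).

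A set of strongly induced genes was not called between the cytokines. *Saa3*, an acute-phase serum amyloid, had 3.82, 5.88 and 3.86 with IL-1β and 4.41, 5.91 and 4.44 with TNFα, over -2.80, -2.87 and -3.05 in controls. The cytokine groups overlapped and both lay far above the controls. The difference was -0.39, with a 95% interval from -1.84 to 1.07 (q = 0.744). *C3*, the central complement component, differed by 0.06 (-1.45 to 1.57, q = 0.966) and *Slpi*, a secreted inhibitor of neutrophil elastase, by 0.00 (-1.13 to 1.12, q = 0.997).

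*Cxcl1*, a neutrophil attractant like *Cxcl5*, had 5.86, 6.08 and 6.13 with IL-1β and 5.78, 5.57 and 5.24 with TNFα, over 1.96, 1.85 and 1.84 in controls. The IL-1β arrays lay just above the TNFα arrays. The difference of 0.57 (0.16 to 0.99) did not pass (q = 0.0813), but *Cxcl1* was called higher with IL-1β under quantile normalization (0.67, q = 0.0414) and with normexp (q = 0.017). The platelet basic protein gene *Ppbp* differed by 0.12 (-0.13 to 0.36, q = 0.535). *Ccl2*, the main monocyte attractant, had 8.72, 9.02 and 8.85 with IL-1β and 9.47, 9.42 and 9.41 with TNFα, a difference of -0.61 (-1.14 to -0.08) that missed the threshold (q = 0.137) and passed it with the run as a block (q = 0.0191). The NF-κB cofactor *Bcl3* differed by 0.09 (-0.36 to 0.54, q = 0.808). Of the 11 acute-phase and antimicrobial genes tested, only *Lcn2* and *Hp* were called, and the list's median was 0.86 (0.61 within slide 1 and 0.42 within slide 2). With the run as a block 5 of the 11 were called higher with IL-1β.

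**Figure D5:**
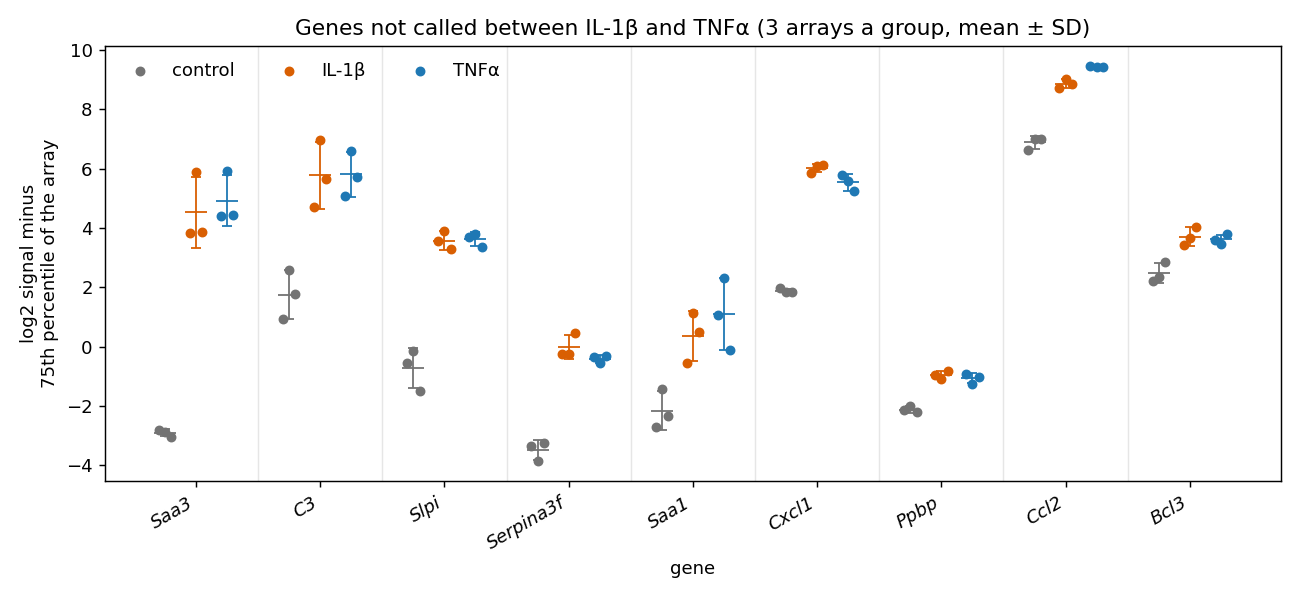
Level (log2 signal minus the 75th percentile of the array, y axis) of 9 genes induced by both cytokines and not called between them, for control, IL-1β and TNFα arrays; points are arrays, bars are mean ± SD of 3. The IL-1β and TNFα arrays overlap for *Saa3*, *C3* and *Slpi*, and both groups lie above the controls.

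Beyond the inflammatory lists, the genes most in favour of IL-1β were ones that TNFα lowered. *Krt15*, a keratin, had -1.27, -0.23 and -0.32 with IL-1β and 1.16, 1.05 and 1.39 in controls, and was above background on no TNFα array, at least 17.6-fold lower than with IL-1β (q = 6.21e-06). *Pip*, which encodes the prolactin-induced protein, was at least 13.1-fold, *Trem2*, a lipid receptor of myeloid cells, at least 8.17-fold, the keratin *Krt13* at least 6.28-fold and the phosphodiesterase *Gdpd2* at least 6.24-fold higher with IL-1β (q = 0.00121, 6.13e-05, 1.77e-06 and 0.0119), all above background on no TNFα array. The *Gdpd2* call was lost without IL-1β 15 (4.34, q = 0.0629), with normexp (1.44, q = 0.112) and with only the 6 arrays (q = 0.0722).

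The retinal reductase *Dhrs3* (4.59, q = 2.5e-05), the lipid droplet protein *Plin4* (4.58, q = 3.07e-06) and the adipokine *Adipoq* (3.92, q = 0.000257) fell with TNFα against control and did not pass for IL-1β against control, nor did *Tprg* (4.28, q = 6.68e-05) and *Spon2* (4.12, q = 6.92e-05). *Adipoq* was above background on only 1 TNFα array, so the size of its gap has no exact value (1.74 with normexp). The carbonyl reductase *Cbr2* differed in that its IL-1β arrays (3.39, 4.92 and 4.07) all lay above the controls (1.88, 2.53 and 2.59) and its TNFα arrays (-1.83, -0.98 and -1.62) all lay below. Its difference was 5.57 ± 0.41 (q = 1.41e-05), and IL-1β against control did not pass (1.80, q = 0.11).

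In favour of TNFα, the tyrosine phosphatase *Ptpn22* (-4.10 ± 0.73, q = 0.00516) was among the 12 widest gaps. It was above background on only 2 of the 3 IL-1β arrays, so this gap has no exact value either (-2.55 with normexp). *Padi2*, a protein-citrullinating enzyme, *Slamf8*, a surface receptor, and *Spaca7* were above background on 3 TNFα arrays and on no IL-1β array, at least 5.41-fold, 2.95-fold and 3.49-fold higher (q = 0.00269, 7.15e-06 and 2.42e-05). In the set of genes that the study chose on these control and TNFα samples, 3 of 25 tested were higher with IL-1β (*Cxcl5*, *Il6* and *Itga11*) and 4 with TNFα (*Icam1*, *Mmp3*, *Col5a3* and *Sod2*), or 5 and 8 with the run block. As that choice was made on these samples, its direction is no independent evidence.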

How the data were processed

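MEFs were measured on 15 one-color arrays, 3 for each of 5 groups, grouped by their labels. For the control, TNFα and TGFß1 groups, independent experiments are stated in the study. For IL-1β nothing is stated. The authors extracted the arrays with Agilent Feature Extraction 10.7.3.1, and the deposited files hold each spot's processed intensity (background-subtracted, detrended, not normalized between arrays), median intensity and quality marks. The precision is limited by 3 arrays a group. The 75th percentile of intensity was 325 to 445, and 48.3% to 54.9% of probes were well above background per array.

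Each array held 62976 spots, 59305 without controls, for 56605 probes. Spots marked as outliers were left out, log2 intensities were averaged per probe, and the array's 75th percentile was subtracted. A probe was above background where at least 0.5 of its spots were marked so, and probes above background on all 3 arrays of either group compared were tested. RefSeq identifiers named 33767 probes (GRCm38.p6). A gene took its brightest probe, and no called list gene had another probe called the other way. Each probe was fitted in limma 3.58.1 (R 4.3.3) on all 15 arrays with slide as a term, which held 8 and 7 arrays. A bound ("at least") sets the bright group against the dimmest signal well above background. The steps were tested on simulated data.

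Label numbers 1 to 5, 6 to 10 and 11 to 15 form runs with 1 array of each group. With the slide removed, the 3 same-run pairs of IL-1β and TNFα arrays had deviations correlated at 0.483 to 0.513, and the 6 other pairs at -0.370 to -0.0982. The pairing comes from this check of the data and not from the labels.

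The genes named were the 12 largest and 12 smallest differences among called genes, and list members. Members and lists were chosen with earlier results of these data known. The alternatives were other normalizations, filters, blocks and arrays left out. For the normexp alternative the median spot intensity replaced the mean, which the files do not give. Promoters were read from a RefSeq table with Python 3.11.15.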

Additional observations from a re-analysis of the deposited data

How the results depend on the processing

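No called gene of the lists or among those named reversed direction under any alternative, and all probes called under both settings kept their direction. The 1827 probes called between IL-1β and TNFα became 3027 with slide and run as blocks (the replicate block), 1109 without the filter on dim probes, 743 with only the 6 arrays of both groups, 864 at a fold-change of 2, 2817 without a fold-change criterion, 447 within slide 1 and 290 within slide 2. They ran from 1045 (without IL-1β 10) to 2053 (without IL-1β 5) with 1 array left out. Within a slide 1 array stands against 2, so few calls are possible. For the list genes higher with IL-1β, 25 became 43 with the replicate block, 16 with the 6 arrays, 8 within slide 1 and 6 within slide 2, and 16 (without TNFα 4) to 30 (without IL-1β 5) with 1 array left out. For those higher with TNFα, 110 became 140 with the replicate block, 80 with the 6 arrays, 39 within slide 1 and 21 within slide 2. With 1 array left out they ran from 78 (without TNFα 14) to 115 (without control 1). Against control, the 111 probes called with IL-1β became 332 with the replicate block and 68 without the filter, with 58 (without IL-1β 15) to 123 with 1 array left out. The 3505 with TNFα stayed within 1.5 times of this count. They became 4420 with the replicate block, and 2412 (without control 6) to 3766 with 1 array left out. Normexp background correction, which calls 1342 probes, and the model without slide, which calls 1380, moved the share of calls higher with IL-1β from 57.0% to 50.7% and 64.0%, and the fit of 6 arrays to 47.5%. Without the slide, *Zc3h12a*, *Tnfrsf1a*, *Ccl8*, *Il34*, *Nfkb1*, *Mmp1a* and *Stat3* were among those not called, and with only the 6 arrays *Cd55*, *Tgfb2*, *Sod2* and *Padi2* were among those not called. Causes were not tested. Dim genes such as *Cxcl9* and *Acod1* have only a bound or a single measured array with IL-1β.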
